A study of Homo sapiens with 12 samples.

Results

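The MYC and MAX network is a small family of basic helix-loop-helix leucine zipper proteins, examined here through its transcripts. It was taken as the rows of the deposited gene count table whose gene name was MYC, MYCN, MYCL, MAX, MXD1, MXD3, MXD4, MXI1, MNT or MLX, which gave 10 genes of 58735. Of these, 9 passed the filter on low counts, as did 16702 genes in all, and MYCN did not. The libraries came from Beas-2b, a human bronchial epithelial cell line immortalised in culture. Each of 4 groups had 3 biological replicates. They were wild type cells in control medium, wild type cells given bleomycin, ANT1 knockout (KO) cells in control medium, and knockout cells given bleomycin. Bleomycin is a drug that breaks DNA, and the labels give 10 mg/ml for 2 days, with senescence as the aim. The knockout was made by CRISPR in SLC25A4, the gene of the mitochondrial ADP/ATP carrier ANT1, and the number of clones, not given in the sources used here, means that genotype and clone cannot be told apart.

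MYC, MYCN and MYCL are transcription factors that bind DNA as dimers with MAX, mostly at the E-box CACGTG, and raise the transcription of genes for growth, metabolism and division. MXD1, MXD3, MXD4, MXI1 and MNT compete with them for MAX and for the same sites, where they recruit SIN3 and histone deacetylases and act as repressors. MLX stands beside MAX as the partner of the glucose-sensing factors MondoA (MLXIP) and ChREBP (MLXIPL), and can also pair with MXD1, MXD4 and MNT. In epithelia MYC is known from cycling cells and MXD1 from cells that leave the cycle and differentiate, while MXD3 is known from dividing cells.

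Library totals ran from 15753944 to 21923695 counts. SLC25A4 was at 22.8, 16.6 and 18.3 CPM (counts scaled to a common library size with TMM factors) in wild type control and at 5.08, 6.97 and 4.81 in knockout control (log2 fold change -1.78, SE 0.21, adjusted p = 0.0111, edgeR). Epithelial markers summed to between 1396 and 1755 CPM over all 12 libraries, mostly keratins 7, 8, 18 and 19, whereas the group means of CDH1 and EPCAM lay between 0.937 and 2.45 CPM and KRT5 had 0 counts in knockout control. Of the leukocyte markers, CD14 averaged 21.4 CPM without and 2.16 CPM with the drug in wild type cells, and 34.1 and 3.71 CPM in the knockout, while PTPRC and CD3E were at or near 0 in all groups. ITGAM, on the same list, had 0 counts in every wild type control library and 94, 106 and 100 with bleomycin, and 0, 0 and 2 against 67, 106 and 82 in the knockout. Endothelial markers summed to between 2.34 and 4.23 CPM. Fibroblast markers summed to between 488 and 3527 CPM, almost all from COL1A1, with LUM at 0 counts in every group and DCN at 0 in both control groups. The part of these markers in the results was not tested. One knockout control library, replicate 2, lay apart from the rest. It held the highest COL1A1 value, 3474 CPM. Its mitochondrial counts were 0.364% of the total against 3.86% to 5.13% in the other 11 libraries, and it lay above or below all of the other 11 for 8355 of the 16702 tested genes, where any other library did so for at most 3416. Of the 9 tested members it was the extreme of the 12 libraries for 7, highest for MYCL, MXD3, MXD4 and MNT and lowest for MXD1, MXI1 and MLX. Results that rest on it are given with and without it.

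The start regions of the members differ in whether they carry the E-box that the network's own dimers bind, so 5 of them are shown first. They are the repressors MXD1 and MXD3, whose transcripts went opposite ways under bleomycin, and the 3 members with a CACGTG in the window searched (no window of MYC was searched), MXD4, MNT and MLX. Sequences are from RefSeq on GRCh38.p14, 5′ to 3′ on the gene's strand, limited to bases before the start site that lie in no GENCODE 29 exon. Capitals mark CCAAT on either strand in the first pair and CACGTG in the other 3. The stretches are chr2:69914859-69915040 (plus strand) for MXD1, chr5:177312758-177313002 (minus) for MXD3, chr4:2262295-2262359 (minus) for MXD4, chr17:2401119-2401310 (minus) for MNT and chr17:42566850-42567067 (plus) for MLX.
MXD1: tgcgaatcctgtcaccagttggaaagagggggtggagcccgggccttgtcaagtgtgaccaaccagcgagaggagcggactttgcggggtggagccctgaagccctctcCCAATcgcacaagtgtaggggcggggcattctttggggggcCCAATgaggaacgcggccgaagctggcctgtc
MXD3: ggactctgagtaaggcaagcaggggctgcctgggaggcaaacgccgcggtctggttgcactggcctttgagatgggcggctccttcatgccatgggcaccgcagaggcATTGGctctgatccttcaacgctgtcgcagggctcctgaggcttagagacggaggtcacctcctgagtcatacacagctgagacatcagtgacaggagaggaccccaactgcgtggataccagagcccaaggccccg
MXD4: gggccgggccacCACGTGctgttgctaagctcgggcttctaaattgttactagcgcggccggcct
MNT: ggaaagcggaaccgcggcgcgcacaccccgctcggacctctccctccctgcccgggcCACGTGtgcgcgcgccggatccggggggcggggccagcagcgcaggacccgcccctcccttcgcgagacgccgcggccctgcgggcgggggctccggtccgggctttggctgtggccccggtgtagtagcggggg
MLX: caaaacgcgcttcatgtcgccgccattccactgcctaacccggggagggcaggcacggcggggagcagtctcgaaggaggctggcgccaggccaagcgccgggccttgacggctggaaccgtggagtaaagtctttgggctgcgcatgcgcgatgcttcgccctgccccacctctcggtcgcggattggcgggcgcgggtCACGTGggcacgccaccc

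Windows of 300 bases, 250 before and 50 after the start site, were searched for 9 of the 10 members, all but MYC. They came to 12 in all because MXI1 has 3 and MAX has 2. The E-box CACGTG, which reads the same on both strands, was in 3 of the 12 windows, against 7.20% of all 34796 windows and 9.81% of those with at least 60% GC. It lay at -238 to -233 in MXD4, at -193 to -188 in MNT and at -50 to -45 in MLX, counted from the start site. The other motifs were searched on both strands. The GC box GGGCGG was in 11 of the 12 windows (44.9% of all windows, and 78.1% of those with at least 60% GC, as 10 of the 12 are) and CCAAT in 4 (34.6%, and 28.7% of the GC-rich), those of MXD1, MXD3, MXD4 and MLX. The E2F letters TTTCGCGC or TTTGGCGC were in the MYCN window alone (1.14% of all, 1.60% of the GC-rich), as 2 matches on opposite strands that overlap each other. The same window alone held TTTGAA or TTCGAA (16.4% of all, 6.07% of the GC-rich), the letters of the cell cycle homology region. TATAAA (11.6%, and 2.80% of the GC-rich) and the p53 half-site consensus (6.65% and 4.48%) were in 0 of the 12. These matches describe letters in the windows and no binding was measured.

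**Figure D1:**
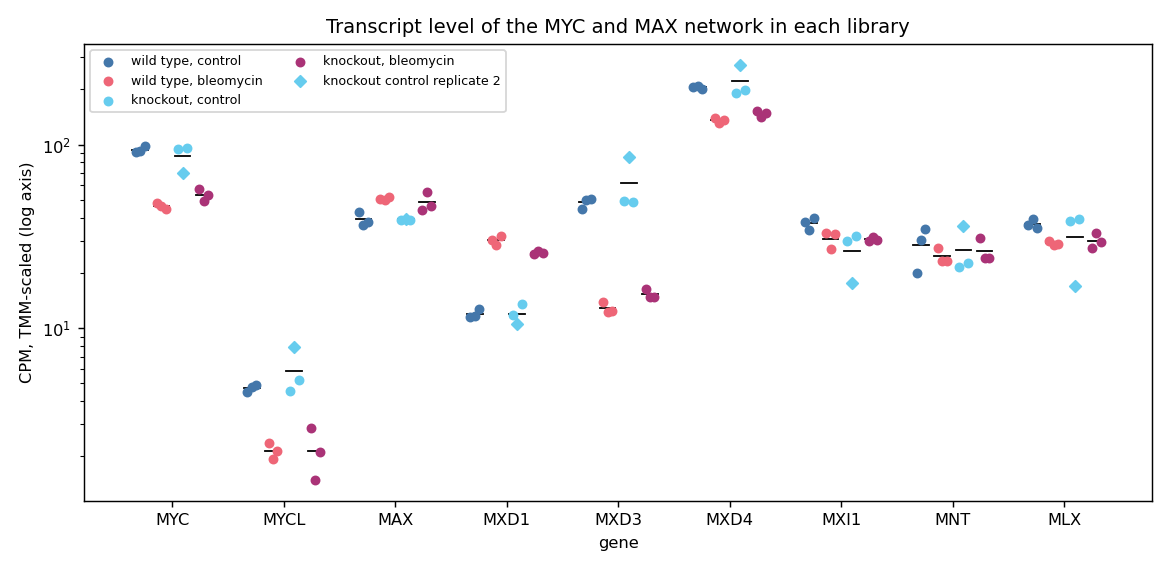
CPM (TMM-scaled, log axis) of the 9 tested members in each of the 12 libraries. Points are libraries coloured by group, short lines are group means, and the diamond is knockout control replicate 2. MXD1 is higher and MXD3 lower in every bleomycin library than in every control library of either genotype.

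Bleomycin lowered MYC, MYCL, MXD3 and MXD4 transcripts and raised MXD1 and MAX, in wild type and in knockout cells. In wild type cells the strongest fall was 3.76-fold, of MXD3 (log2 fold change -1.91, SE 0.19), and the strongest rise 2.54-fold, of MXD1 (1.34, SE 0.11). In knockout cells they were 3.99-fold and 2.16-fold, of the same 2 genes. Of the 9 tested members, 2 rose and 4 fell in wild type cells by edgeR's quasi-likelihood test at an adjusted p under 0.05. Over all tested genes 43.5% were called there, 23.9% higher and 19.6% lower. In knockout cells the count was again 2 higher and 4 lower, beside 43.2% of all genes (22.5% higher, 20.7% lower). The list as a whole was not tested against that background. CPM values are relative to all transcripts, so a change in total RNA per cell is not seen in them. Each library also pools many cells. A smaller amount of a transcript per cell and fewer cells that express it therefore cannot be told apart.

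MYC (ENSG00000136997, chromosome 8), the family member that drives growth in most dividing cells, was at 90.6, 92.5 and 97.7 CPM in wild type control and at 48.2, 46.4 and 44.6 after bleomycin. The fall was 2.02-fold (log2 fold change -1.01, SE 0.12, adjusted p = 1.13e-05, edgeR). Every bleomycin library lay below every control library. In knockout cells MYC stood at 95.04, 70.2 and 95.4 CPM in control medium and 56.9, 49.1 and 53.3 in bleomycin, where the groups did not overlap either. That fall was 1.64-fold (-0.71, SE 0.12, adjusted p = 0.000274), and without knockout control replicate 2, the library at 70.2, it was -0.85 (SE 0.08, adjusted p = 8.59e-09).

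MYCL (ENSG00000116990, chromosome 1, 39895426 to 39902256), the MYC relative first found in lung cancer, was at a far lower level. It had 4.48, 4.77 and 4.92 CPM in wild type control and 2.37, 1.95 and 2.14 in bleomycin, a 2.19-fold fall (-1.13, SE 0.25, adjusted p = 0.00277). In knockout cells it went from 4.53, 7.90 and 5.19 CPM to 2.86, 1.49 and 2.12 (-1.45, SE 0.26, adjusted p = 0.000527). No bleomycin library reached a control library of its genotype. The highest knockout control value was again that of replicate 2, without which the change was -1.19 (SE 0.23, adjusted p = 0.000257).

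MYCN (ENSG00000134323, chromosome 2, 15940564 to 15947007), the neural relative, was near the limit of detection. Wild type control libraries held 2, 6 and 4 counts and those with bleomycin 1, 0 and 0. The knockout libraries held 4, 1 and 0 in control medium, against 1, 0 and 0 with the drug. The 12 counts against 1 in wild type cells give a ratio of control to bleomycin of 10.8, with an exact 95% counting interval of 1.59 to 460. For the 5 against 1 of knockout cells the ratio is 5.12 (0.573 to 242). These intervals cover counting error only. Without the filter on low counts, edgeR gave MYCN an adjusted p = 0.101 in wild type and 0.433 in knockout cells. A count of 0 in a library allows up to 3 counts, which is between 0.137 and 0.190 CPM.

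MAX (ENSG00000125952, chromosome 14, 65006174 to 65102695), the partner shared by the MYC and MXD proteins, moved least among the called members. It was at 42.8, 36.6 and 38.1 CPM in wild type control and 50.7, 49.8 and 52.0 in bleomycin (0.38, SE 0.10, adjusted p = 0.00745), a rise of 1.30-fold with no overlap. In knockout cells it went from 39.0, 39.5 and 39.0 CPM to 44.2, 54.8 and 46.5 (0.31, SE 0.10, adjusted p = 0.0227). The knockout call was lost without knockout bleomycin replicate 2, the library at 54.8 (0.21, adjusted p = 0.125), without knockout control replicate 1 (adjusted p = 0.0533) or 3 (0.0569), without the filter on low counts (0.0874) and with only the knockout libraries in the fit (0.0789).

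The repressors did not move as a block. MXD1 (ENSG00000059728, chromosome 2, 69897688 to 69942945), known from differentiating cells, was at 11.5, 11.6 and 12.6 CPM in wild type control and at 30.4, 28.4 and 31.9 in bleomycin (adjusted p = 5.30e-07). All bleomycin libraries lay far above the controls. In knockout cells it went from 11.8, 10.5 and 13.5 CPM to 25.3, 26.3 and 25.8, a 2.16-fold rise (1.11, SE 0.11, adjusted p = 4.35e-06). MXD1 shares 3.73% of its exonic bases with SNRNP27 on the same strand, which rose 1.77-fold and 1.75-fold in the 2 genotypes. What part of MXD1's reads could come from it was not tested.

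MXD3 (ENSG00000213347, chromosome 5, 177301461 to 177312757), the repressor known from dividing cells, was at 44.7, 50.04 and 50.4 CPM in wild type control and at 13.9, 12.3 and 12.3 in bleomycin (adjusted p = 3.01e-06). In knockout cells it went from 49.5, 85.7 and 48.9 CPM to 16.4, 14.8 and 14.8, a 3.99-fold fall (adjusted p = 2.56e-06). The bleomycin libraries were tightly grouped, and the high control value belonged to replicate 2, without which the change was -1.69 (SE 0.09). MXD3 shares 17.97% of its exonic bases with RAB24 on the same strand and 22.5% with PRELID1 on the other. RAB24 was at 13.2, 54.7 and 13.7 CPM and PRELID1 at 148, 339 and 141 in the knockout control libraries, so both were also high in replicate 2. Under bleomycin RAB24 had a log2 fold change of 0.08 (SE 0.43) in wild type cells and PRELID1 -0.37 (SE 0.26), neither called. These SE come from the fit of all 12 libraries, knockout control replicate 2 included. What part of MXD3's reads could come from RAB24 or PRELID1 was not tested.

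MXD4 (ENSG00000123933, chromosome 4, 2247432 to 2262294) was the most abundant repressor transcript. It stood at 206, 207 and 202 CPM in wild type control and at 140, 131 and 137 in bleomycin, a 1.51-fold fall (-0.59, SE 0.12, adjusted p = 0.00101). In knockout cells it went from 192, 272 and 199 CPM to 153, 141 and 149 (-0.58, SE 0.12, adjusted p = 0.00127), and to -0.41 (SE 0.07) without replicate 2, the library at 272. The groups were apart in both genotypes. MXD4 is one of the 3 members with a CACGTG in the windows searched, printed above.

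MXI1, MNT and MLX were not called in either genotype with all 12 libraries in the fit and the filter on low counts. With only the wild type libraries, MXI1 (-0.27, adjusted p = 0.027) and MLX (-0.35, adjusted p = 0.00214) were called lower in bleomycin, as was MLX without the filter (-0.38, adjusted p = 0.0342). MXI1 (ENSG00000119950, chromosome 10, 110207605 to 110287365), the repressor also known as MXD2, was at 37.9, 34.2 and 39.6 CPM in wild type control and 32.8, 27.0 and 32.5 in bleomycin (-0.27, SE 0.17, adjusted p = 0.228), with no overlap. It had 29.9, 17.5 and 31.8 CPM in knockout control and 30.0, 31.4 and 30.1 in bleomycin (0.20, SE 0.18, adjusted p = 0.373). The low value was replicate 2, and without that library the knockout change was -0.022 (SE 0.10, adjusted p = 0.875) and the wild type fall was called (-0.28, SE 0.09, adjusted p = 0.0101).

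MLX (ENSG00000108788, chromosome 17, 42567068 to 42573239) had a similar dependence. It was at 36.3, 39.5 and 35.2 CPM in wild type control and 29.8, 28.3 and 28.8 in bleomycin (-0.35, SE 0.23, adjusted p = 0.231), and at 38.2, 17.0 and 39.2 and then 27.3, 33.0 and 29.5 in knockout cells (-0.07, SE 0.23, adjusted p = 0.822). Replicate 2, at 17.0 CPM, lay below all other libraries. Without it MLX was called lower in both genotypes, at -0.36 (SE 0.08, adjusted p = 0.00087) for wild type and -0.37 for knockout cells (SE 0.09, adjusted p = 0.00208). MLX shares 18.1% of its exonic bases with PSMC3IP on the other strand, which rose 1.37-fold in wild type and 1.43-fold in knockout cells.

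MNT (ENSG00000070444, chromosome 17, 2384060 to 2401118), the repressor found in most cell types, ranged widely within groups. Wild type cells had 20.05, 30.2 and 34.5 CPM without and 27.5, 23.2 and 23.2 with bleomycin. For the knockout these were 21.5, 36.1 and 22.6 and then 30.9, 24.0 and 24.0. All 4 groups overlapped. The wild type change was -0.20 (SE 0.22, adjusted p = 0.499). The knockout change was -0.025 (SE 0.22, adjusted p = 0.94), and 0.24 (SE 0.20) without knockout control replicate 2. MNT shares 12.2% of its exonic bases with AC006435.1 on the other strand. What part of MNT's reads could come from that gene was not tested. CPM groups did not overlap for 8 of the 9 tested members in wild type cells, beside 61.3% of all genes (32.1% higher, 29.2% lower with bleomycin). They did not overlap for 6 in knockout cells, beside 51.3% (27.4% higher, 23.9% lower).

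**Figure D2:**
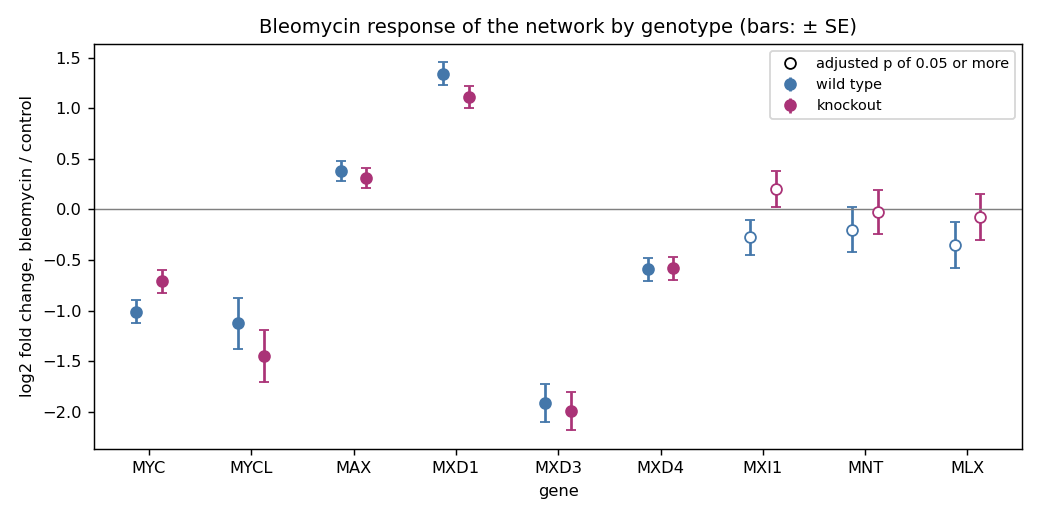
Log2 fold change of bleomycin against control for the 9 tested members in wild type and knockout cells, from edgeR, with bars of ± SE. Filled points passed an adjusted p of 0.05. MXD3 is lowest, with falls of 3.76-fold and 3.99-fold, MXD1 is highest at 1.34 and 1.11, and MXI1, MNT and MLX are open in both genotypes.

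Levels of different genes were compared per length, in the deposited FPKM. In wild type control MYC led with 31.1 ± 1.21 FPKM, then MXD4 with 28.9 ± 0.382 (SD, n = 3), and their libraries did not overlap. MXD3 (9.36 ± 0.591), MAX (8.81 ± 0.766), MLX (8.66 ± 0.496) and MXI1 (8.05 ± 0.611) followed, and neighbours among these 4 did not differ beyond their spread. MNT (3.23 ± 0.844), MXD1 (1.87 ± 0.102), MYCL (0.929 ± 0.0425) and MYCN (0.0753 ± 0.0331) came last, each apart from the next.

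After bleomycin the order changed at the top and in the middle. In wild type cells MXD4 led with 19.1 ± 0.649 FPKM, ahead of MYC with 15.3 ± 0.564 and MAX with 11.4 ± 0.282, all apart from each other. MXD1, at 4.72 ± 0.290, had passed MXD3, at 2.47 ± 0.180, whereas in control medium MXD3 was the higher. The means of the knockout bleomycin libraries gave the same order of all 10 genes. There MXD4 was at 20.7 ± 0.818, MYC at 17.5 ± 1.22, MXD1 at 4.02 ± 0.0928 and MXD3 at 2.95 ± 0.159 FPKM. In both bleomycin groups the libraries of MLX and MXI1 overlapped, as did those of MNT and MXD3. In knockout control MXD4 (31.2 ± 6.28) and MYC (28.8 ± 4.78) overlapped, since replicate 2 had 38.4 FPKM of MXD4 and 23.3 of MYC. In its 2 other libraries MYC was the higher, at 31.5 against 27.1 and 31.6 against 28.1 FPKM.

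MYC was also set against the summed FPKM of MXD1, MXD3, MXD4, MXI1 and MNT, as a description without a test. The ratio was 0.602, 0.595 and 0.615 in wild type control and 0.427, 0.455 and 0.407 in wild type bleomycin. Knockout libraries gave 0.666, 0.361 and 0.645 without the drug and 0.488, 0.448 and 0.475 with it. Both sides of the ratio were smaller after bleomycin, MYC going from 31.1 to 15.3 FPKM and the repressor sum from 51.4 ± 1.28 to 35.7 ± 1.90 in wild type cells. Replicate 2 of knockout control had the lowest ratio of all 12 libraries.

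The make-up of the repressor sum shifted. MXD3 held 17.3% to 18.7% of it in wild type control and 6.56% to 7.19% in bleomycin, while MXD1 held 3.52% to 3.76% and then 12.7% to 13.8%. In knockout cells MXD3 went from 19.2% to 25.7% down to 7.71% to 8.20%, and MXD1 from 2.56% to 4.31% up to 10.3% to 11.3%. MXD4 stayed the largest share, at 54.0% to 58.2% in wild type control and 52.8% to 54.8% in bleomycin. These are shares of transcripts per length, and protein was not measured.

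**Figure D3:**
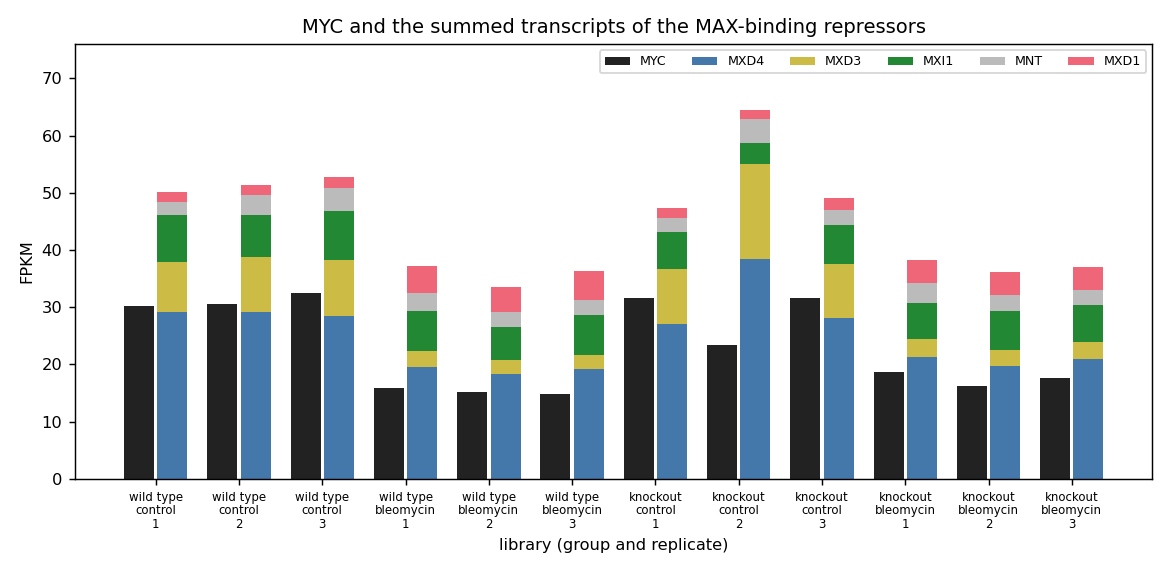
FPKM of MYC (black bars) beside the stacked FPKM of the 5 MAX-binding repressors in each of the 12 libraries. MXD4 is the largest part of every stack, MXD3 shrinks and MXD1 grows in the bleomycin libraries, and knockout control replicate 2 has the tallest stack, 64.5 FPKM.

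Knockout against wild type asks whether loss of ANT1 changed the network, in control medium and in bleomycin. In control medium 0 of 9 tested members were called by edgeR, beside 0.168% of all genes (0.108% higher, 0.0599% lower), and MXI1 alone had an unadjusted p under 0.05 (DESeq2 and limma on FPKM also called 0). Of all 16702 tested genes, 1661 had an unadjusted p under 0.05 in edgeR in that comparison. MXI1 had the largest difference there (-0.49, SE 0.18, adjusted p = 0.422), with each knockout library below each wild type library, as for 5.41% of all genes (6.83% lay wholly above and 12.2% either way). Without knockout control replicate 2 it was -0.27 (SE 0.10, adjusted p = 0.283). MXD3 (0.34, SE 0.18), MYCL (0.31, SE 0.24) and MLX (-0.23, SE 0.23) came next, and without that library they were at 0.026 (SE 0.09), 0.046 (SE 0.22) and 0.063 (SE 0.09). MYC differed by -0.11 (SE 0.11), and by 0.026 (SE 0.08) without it. MNT went the other way, from -0.081 (SE 0.22) to -0.35 (SE 0.20).

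**Figure D4:**
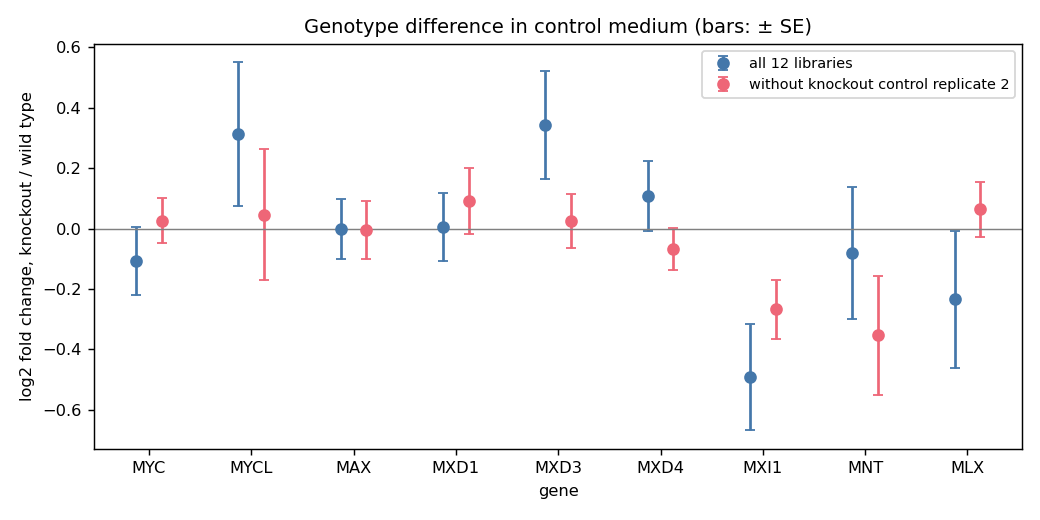
Log2 difference between knockout and wild type cells in control medium for the 9 tested members, with bars of ± SE, from all 12 libraries and without knockout control replicate 2. No point passed an adjusted p of 0.05, and without that library the values of MXD3, MYCL and MLX lie nearer 0.

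In bleomycin 0 of 9 members were called between genotypes by edgeR, DESeq2 and limma, beside 0.0479% of all genes in edgeR (0.00599% higher, 0.0419% lower), and 0 had an unadjusted p under 0.05. Of all 16702 tested genes, 1103 had one in edgeR. The groups did not overlap for 4 members, beside 18.6% of all genes (8.99% higher, 9.6% lower). MYC was higher in every knockout library (0.19, SE 0.12, adjusted p = 0.88), as were MXD3 (0.26, SE 0.19, adjusted p = 0.952) and MXD4 (0.12, SE 0.12, adjusted p = 0.999), and MXD1 was lower (-0.23, SE 0.11, adjusted p = 0.757). MAX (-0.067, SE 0.10) and MXI1 (-0.014, SE 0.18) were among the smallest differences. The interaction, the log2 response to bleomycin in the knockout less that in wild type, called 0 members and 0% of all genes in edgeR, with 0 members at an unadjusted p under 0.05, beside 770 of all 16702 genes. DESeq2 and limma called 0 members there too. The largest interaction values were 0.48 (SE 0.25) for MXI1, -0.33 (SE 0.36) for MYCL and 0.30 (SE 0.16) for MYC. That order rested on knockout control replicate 2, without which they were 0.25 (SE 0.13), -0.062 (SE 0.32) and 0.17 (SE 0.10). The largest were then 0.45 (SE 0.26) for MNT and -0.32 (SE 0.14) for MXD1, and 0 members were called.

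The wider network was read from lists of genes, each described by its calls and its median beside the median of all tested genes, which was 0.023 in wild type and 0.0040 in knockout cells. Their counts are to be read against the shares of all genes called, 43.5% (23.9% higher, 19.6% lower) in wild type and 43.2% (22.5% higher, 20.7% lower) in knockout cells. The list medians are from the fit of all 12 libraries, knockout control replicate 2 included. Of the partners outside the 10, MLXIPL, the gene of ChREBP, rose from 6, 23 and 5 counts to 37, 43 and 50 in wild type cells, and from 17, 10 and 7 to 40, 52 and 49 in knockout cells (4.19-fold and 3.93-fold, adjusted p = 0.00154 and 0.00224). MLXIP (0.25, SE 0.22) and MGA (-0.19, SE 0.11), the large repressor that pairs with MAX, were not called in wild type cells, nor in knockout cells (0.35 and -0.18). Without knockout control replicate 2 MGA was called lower in both genotypes (-0.20, adjusted p = 0.0226, and -0.31, adjusted p = 0.00265). Of 3 targets of MondoA and MLX, 2 rose in both genotypes. ARRDC4, an arrestin-like protein, rose 3.83-fold and 3.51-fold, and TXNIP, which restrains glucose uptake, 1.28-fold and 1.29-fold, while ARRDC2 (0.41 and 0.24) was not called. Without knockout control replicate 2 ARRDC2 was called higher in both, at 0.41 (adjusted p = 0.00194) in wild type and 0.58 (adjusted p = 0.00039) in knockout cells.

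PVT1, a long noncoding RNA gene next to MYC on chromosome 8, was examined with other transcripts near or antisense to members. It was at 11.1, 11.99 and 12.8 CPM in wild type control and at 44.4, 45.4 and 39.6 in bleomycin, a 3.61-fold rise (adjusted p = 1.01e-08), the opposite direction to MYC. In knockout cells it went from 12.9, 13.3 and 14.5 CPM to 43.9, 45.4 and 44.3 (1.71, SE 0.10, adjusted p = 2.65e-08). CASC11, MYCNOS, MYCNUT and MYCLP1 were untested, with at most 5 counts in any group.

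Of 12 genes that govern MYC protein turnover, 3 rose and 6 fell in wild type cells (median -0.35), and 2 rose and 6 fell in knockout cells (median -0.51). FBXW7, the ubiquitin ligase subunit that marks MYC for degradation, rose 3.52-fold, from 20.6 ± 1.17 to 72.7 ± 3.92 CPM (SD, n = 3, adjusted p = 7.96e-09). AURKA, a kinase known to shield MYC proteins from it, fell 4.24-fold, and SKP2, another ubiquitin ligase subunit, fell 2.43-fold. The deubiquitinase USP36 rose 1.92-fold and the kinase GSK3B rose slightly (0.22, adjusted p = 0.0449). USP28, another deubiquitinase on the list, went the other way. In edgeR without knockout control replicate 2 it changed by -1.27 in wild type cells (adjusted p = 8.28e-12) and by -1.15 in knockout cells (3.31e-10). In knockout cells FBXW7 rose 2.97-fold, AURKA fell 3.84-fold, SKP2 2.41-fold, and USP36 rose 1.76-fold.

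Of 12 MYC cofactors, 6 fell and 0 rose in wild type cells (median -0.27), and 4 fell and 0 rose in knockout cells (median -0.13), beside 43.5% and 43.2% of all genes called. RUVBL2, a helicase-like ATPase of chromatin complexes, changed by -0.72 and -0.55, ACTL6A, an actin-like subunit, by -0.54 and -0.46, and HCFC1, a scaffold for chromatin enzymes, by -0.76 and -0.64, all called. Without knockout control replicate 2 the knockout call of HCFC1 was lost (-0.47, adjusted p = 0.212), and TRRAP was called there. TRRAP, the scaffold of histone acetyltransferases, was called in wild type cells (-0.47) and not in knockout cells (-0.28, adjusted p = 0.0944). Without wild type control replicate 3 the wild type count was 3 in place of 6. That fit called 6222 of all 17194 genes tested, against 7262 of 16702 with all 12 libraries.

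Among 13 subunits of the SIN3 and NCOR corepressors, through which MXD proteins act, 1 rose and 6 fell in wild type cells (median -0.21), and 1 rose and 7 fell in knockout cells (median -0.29), beside the same 43.5% and 43.2%. SIN3A, the scaffold that MXD proteins contact, changed by -0.89 (adjusted p = 0.000151) and -0.67, the deacetylase HDAC1 by -0.62 and -0.51, RBBP7 by -0.43 and -0.50, and SAP30 by -1.20 and -1.46. SAP18 was the member that rose (0.42 and 0.47). Without knockout control replicate 2 the knockout values were -0.85 (SIN3A), -0.59 (HDAC1), -0.37 (RBBP7), -0.99 (SAP30) and 0.40 (SAP18). In the same order the wild type values were then -0.90, -0.62, -0.44, -1.20 and 0.41.

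Known MYC targets went both ways. Of 30 ribosome biogenesis genes, 7 rose and 9 fell in wild type cells (median -0.068), and 6 rose and 12 fell in knockout cells (median -0.21), beside 43.5% and 43.2% of all genes called. RRP12 (1.26, adjusted p = 1.40e-06), RRS1 (1.04) and RCL1 (0.86), which serve ribosomal RNA processing and assembly, rose, and UBTF, a factor for ribosomal RNA transcription, fell (-0.81) in wild type cells. Of 30 other genes that MYC activates, 6 rose and 11 fell in wild type cells (median -0.18), and 5 rose and 13 fell in knockout cells (median -0.37). LDHA, lactate dehydrogenase A, changed by -1.68, PTMA, prothymosin alpha, by -0.97 and the folate enzyme SHMT1 by -0.74, while CCND2, cyclin D2, rose from 6 counts over 3 wild type control libraries to 409 in bleomycin, and from 15 to 770 in knockout cells. Between genotypes in bleomycin CCND2 differed by 0.97 (SE 0.22, adjusted p = 0.244), a call gained without knockout control replicate 2 (0.98, SE 0.17, adjusted p = 0.00431). The knockout median of -0.37 for the 30 other activated genes also rested on that library. Without it the middle values of that list were -0.17 (PHB) and -0.15 (NME2) in knockout cells. In wild type cells they were -0.15 (NME2) and -0.13 (PHB).

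Of 6 genes that MYC represses, 3 rose and 3 fell in wild type cells (median 0.13). CDKN1A, the gene of the cycle inhibitor p21 and a p53 target, rose 51.2-fold, GADD45A, also a p53 target, 10.5-fold and CDKN2B, the gene of p15, 1.82-fold. Their rises in knockout cells were 29.2-fold, 4.99-fold and 1.41-fold. These 3 knockout values rested in part on knockout control replicate 2. Without it the log2 fold changes were 4.84 (CDKN1A), 2.84 (GADD45A) and 0.66 (CDKN2B) in knockout cells. In wild type cells they were 5.67, 3.39 and 0.86 in the same fit. The CDKN1A interaction was not called (-0.81, SE 0.13, adjusted p = 0.351), and was called without knockout control replicate 2 (-0.84, SE 0.12, adjusted p = 0.00774). NDRG1 (log2 fold change -1.48), CDKN1B (-0.84), the gene of p27, and NDRG2 (-0.61) fell. In knockout cells 3 rose and 2 fell, and NDRG2 was not called (-0.51, and called at -0.55 without knockout control replicate 2). Between genotypes in control medium CDKN1A was the only gene of these lists of cofactors, turnover factors, corepressors and targets that was called, 1.56-fold higher in knockout cells (0.64, SE 0.09, adjusted p = 0.0238), and at 0.67 (SE 0.09) without replicate 2. Leaving out that library gave knockout counts under bleomycin of 5 called cofactors (0 higher), 9 turnover factors (2 higher), 9 corepressor subunits (1 higher), 18 ribosome biogenesis genes (6 higher), 19 other activated genes (6 higher) and 6 repressed genes (3 higher). The wild type counts were then 6 (0 higher), 11 (3 higher), 9 (1 higher), 21 (7 higher), 19 (7 higher) and 6 (3 higher) in the same order, so that 14 ribosome biogenesis genes in place of 9 were called lower. Calls over all genes rose in that fit too. In wild type cells they were 9743 of 17204 tested, against 7262 of 16702 with all 12 libraries. In knockout cells they were 8319 of 17204, against 7219 of 16702.

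**Figure D5:**
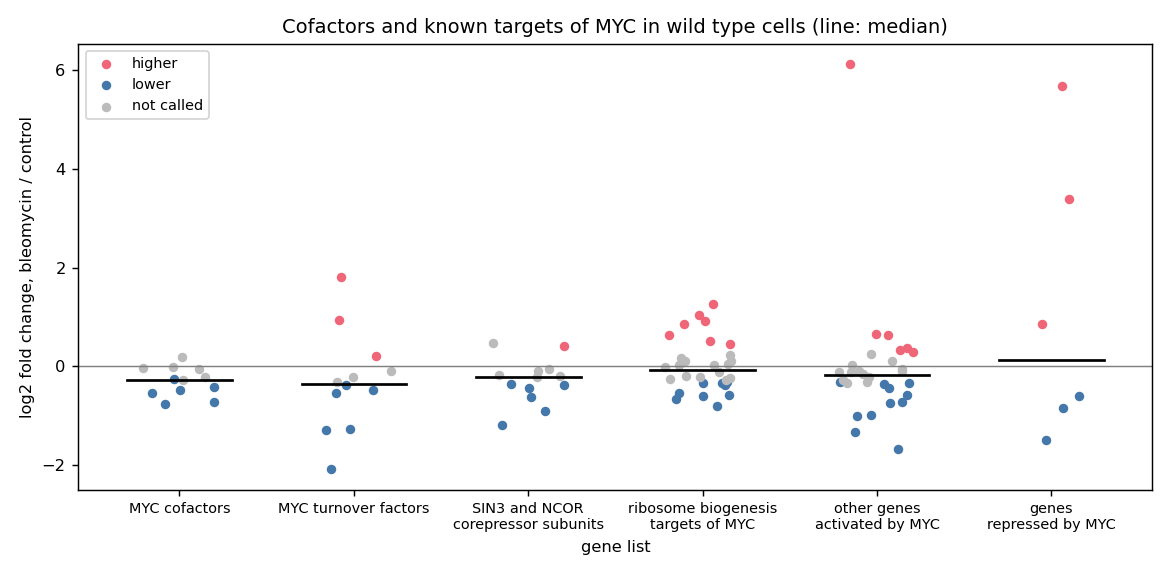
Log2 fold change of bleomycin against control in wild type cells for the genes of 6 lists, with points coloured by edgeR call and a line at each list's median. Medians lie between -0.35 and 0.13, and 5 of the 6 lists hold called genes in both directions.

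The genes whose pattern over the 12 libraries was nearest to MYC were found by the root mean square difference of gene-centred log2 CPM, over 11609 protein-coding candidates whose log2 CPM averaged 1 or more. They were IQGAP3 (0.084), DHTKD1 (0.087), IGF2BP3 (0.088), BNC2 (0.089) and NCAPH (0.091), where 0 would be the same pattern. IQGAP3 is a scaffold protein of dividing cells, IGF2BP3 an RNA-binding protein that binds MYC mRNA among others, and NCAPH a subunit of condensin. For MXD3, the other member with the largest wild type response, the nearest were TNFAIP8L1 (0.12), TNFAIP2 (0.14) and ZNF395 (0.14). In knockout control replicate 2 TNFAIP2 was at 478 CPM against 210 and 215 in the other replicates, and MXD3 too was highest there.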

How the data were processed

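Members and gene lists were chosen with earlier results of these data known. The authors deposited raw counts per gene and FPKM values for 12 libraries and 58735 genes. HISAT2 2.0.5 and featureCounts 1.5.0-p3 are named in the submitters' processing notes. The genome build and use of strand are not given in the sources used here. Reads of overlapping genes may therefore be mixed. All 10 members had the coordinates of GENCODE 29 (GRCh38). Columns were matched to samples by title, leaving 0 unmatched, and 0 rows lacked a gene name.

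Counts were filtered with filterByExpr, scaled with TMM factors and tested with edgeR 4.0.16 in R 4.3.3 (glmQLFit with robust estimation), with a single fit of 12 libraries, 4 group means and 8 residual degrees of freedom. A total of 5 contrasts were tested, with Benjamini-Hochberg adjustment over 16702 genes and a threshold of 0.05. Each SE was obtained from the log2 fold change and the root of its F statistic. The script was tested on simulated data. The deposited FPKM were used for levels between genes and in limma 3.58.1 on log2(FPKM + 1) and log2(FPKM + 0.1). DESeq2 1.42.0, RLE factors, no filter, fits of 2 groups, a replicate block and leaving out each library were alternatives.

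Named were the 10 members, the genes nearest in pattern to MYC (5) and to the other member with the largest wild type response (3), SLC25A4, and up to 4 called genes per list by adjusted p, with those that went against a list's majority where 5 or fewer. Genes that overlap members' exons, and remaining genes named, were chosen after their values were seen. Replicate numbers share no stated origin. Replicates may share a clone or a culture, and p-values measure only the spread between these libraries. The summed level of the leukocyte marker list is not reported here.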

Additional observations from a re-analysis of the deposited data

How the results depend on the processing

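No called member value changed direction. Over 228 recomputed values of called members, 223 stayed past the threshold and 5, all of MAX in knockout cells, did not. Some values of uncalled members changed sign, and these were not all near 0. MLX in knockout bleomycin was 0.0076 by limma on log2(FPKM + 0.1). Between genotypes in control medium MXD1 was -0.019 without the low count filter, -0.0014 and -0.0037 by limma with pseudocounts 1 and 0.1, and -0.0073 with only those 2 groups, and MAX was 0.0013 and 0.0018 by limma. Without the filter 1 member, MXI1, was called there (-0.51, adjusted p = 0.0321), against 0. With only the knockout groups in the fit, 11 ribosome biogenesis genes were called in place of 18. Over all genes that fit called 5009 of 15703, against 7219 of 16702 with all 12 libraries. Leaving out a library gave 3 to 6 called cofactors in wild type cells. The count of 3 came without wild type control replicate 3, where 6222 of all 17194 genes were called.

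Leaving out each library gave these ranges of sign-changing values. For bleomycin in knockout cells they were -0.022 to 0.36 (MXI1), -0.16 to 0.24 (MNT) and -0.37 to 0.11 (MLX). Between genotypes in control medium they were -0.18 to 0.026 (MYC), -0.048 to 0.050 (MAX), -0.094 to 0.091 (MXD1), -0.068 to 0.20 (MXD4), -0.35 to 0.088 (MNT) and -0.42 to 0.063 (MLX). In bleomycin they were -0.26 to 0.20 (MYCL), -0.099 to 0.036 (MXI1), -0.037 to 0.18 (MNT) and -0.027 to 0.11 (MLX). For the interaction they were -0.22 to 0.23 (MXD3), -0.081 to 0.19 (MXD4) and -0.014 to 0.47 (MLX).

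Same-numbered libraries had deviations correlated from -0.13 to 0.11, 1 of 18 over 0.1, so the numbers were not taken as pairing. A replicate block left 6, 6, 0, 0 and 0 members called in the 5 contrasts, and put MXI1 between genotypes in bleomycin at 0.00067. Counts over all genes moved more. Between genotypes in control medium they were 28, and 321 without the filter, 202 by DESeq2, 13 by limma, 0 with 2 groups, 11 with the block and 175 without knockout control replicate 2. In bleomycin they were 8, and 81, 74, 23 or 5, 312, 4 and 294 in that order. The interaction, which has no fit with 2 groups, went from 0 to 13 without the filter, 4 by DESeq2 and 9 without that library. The causes were not tested.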
